A study of Mus musculus with 6 samples.

Results

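The genes described here encode the enzymes of cholesterol and fatty acid synthesis, the SREBP proteins that control them and the citrate importer Slc13a5. They were chosen by name from a list of 32 symbols. Of these, 30 had a row in the table of 24043 genes, and the other 2 (Sc4mol and Sc5dl) are older names of Msmo1 and Sc5d. Transcript levels were measured by RNA-seq of total RNA in mouse embryonic stem (ES) cells, pluripotent cells taken from early embryos. The wild-type group held 3 libraries. The other group, labelled Q-KO and with a genotype given as lacking every G1 cyclin, also held 3. All cells were grown in Knockout DMEM with leukaemia inhibitory factor, PD184352, which blocks MEK, and CHIR99021, which blocks GSK3. The sources used here do not name the cell lines or clones behind the libraries. The comparison asks how the levels of these genes differ between the libraries labelled Q-KO and the wild-type libraries.

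Cholesterol is made from acetyl-CoA through mevalonate, farnesyl diphosphate, squalene and lanosterol. Fatty acids start from the same cytosolic acetyl-CoA, which ATP citrate lyase (Acly) releases from citrate and the synthetase Acss2 makes from acetate. The genes of both routes are classical targets of the SREBP transcription factors. SREBPs are made as membrane proteins of the endoplasmic reticulum. The escort protein SCAP carries them to the Golgi when sterols are low, where proteases release their active part, and INSIG proteins hold SCAP back when sterols are plentiful. Proliferating cells such as ES cells need both lipids for new membranes.

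In the libraries labelled Q-KO, 2 of 29 tested genes of the set were called higher, where 3.04% of all genes tested were, and 0 were called lower, where 1.02% were. Slc13a5, the plasma membrane importer of citrate, rose 13.7-fold in mean level, and Scap, the escort of SREBPs, rose 2.35-fold. No sterol or fatty acid enzyme of the set passed the test. Of the 16 sterol enzymes tested, 13 had a log2 change below 0, the lowest at -0.48, where 40.7% of all genes tested were below 0. The 7 fatty acid enzymes lay between -0.27 and 0.29 on the same scale.

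The values were FPKM (fragments per kilobase of gene, scaled to the mapped fragments of the library), which allow levels of different genes to be compared. Genes that averaged 1 FPKM or more across the 6 libraries were tested with limma on log2(FPKM + 1), and p-values were adjusted by the Benjamini-Hochberg method over all 11573 genes tested. A log2 change is the libraries labelled Q-KO minus wild-type on that scale, which understates the change of low genes. A gene was called when its adjusted p was under 0.05. The sum of FPKM per library was 525134 to 641715. The sources used here give no fragment numbers. Judged from low values, the other libraries were 1.10 to 1.21 times as deep as wild-type replicate 1. Among the targeted genes, Ccnd1 (30.1 ± 9.80 against 8.89 ± 1.04 FPKM, mean ± SD, n = 3 per group as in all means here), Ccnd3 and Ccne2 were called lower in the libraries labelled Q-KO. Ccne1 ran the other way, at 55.9, 53.9 and 37.5 FPKM in wild-type and 65.3, 73.5 and 87.3 FPKM in libraries labelled Q-KO, and was not called (limma adjusted p = 0.113). Ccnd2 stayed below 1 FPKM in all libraries. A gene-level value also holds reads from exons outside a deletion. All 9 ES cell markers examined were above 1 FPKM in every library, and 0 were called. Of these, Zfp42 was at 76.6, 78.9 and 363 FPKM in wild-type and at 177, 75.4 and 74.7 FPKM in libraries labelled Q-KO. The summed level of 7 fibroblast feeder markers was 1.61 to 2.99 FPKM in wild-type and 0.951 to 6.48 FPKM in libraries labelled Q-KO. The sums of 6 primitive endoderm markers (1.13 to 1.97 and 1.72 to 2.51 FPKM) and of 5 trophectoderm markers (1.41 to 4.24 and 2.32 to 8.82 FPKM) were also low, and no marker of these 3 lists was at 0 in every library. Within them, Cdx2 was at 0.0264, 0.0489 and 0.0178 FPKM in wild-type and at 0.805, 0.443 and 0.393 FPKM in libraries labelled Q-KO. Dab2 (0.0821 ± 0.0361 and 0.657 ± 0.507 FPKM) and Gata3 (0.113 ± 0.0990 and 0.275 ± 0.0413 FPKM) also rose with separate ranges. Thy1 had separate ranges the other way, at 1.42, 1.83 and 2.75 FPKM in wild-type and 1.36, 0.828 and 0.819 FPKM in libraries labelled Q-KO. The other markers of these lists had overlapping ranges. The part of these markers in the results was not tested. Wild-type replicate 3 stood apart: its r with the other wild-type libraries was 0.957 and 0.942, where those 2 reached 0.973 with each other. It shared Y-linked transcripts with the libraries labelled Q-KO, while the sum of these was 0 in wild-type replicates 1 and 2. Its genes on chromosomes 8 and 11 were also raised, by a median of 0.18 and 0.17 (log2) over each gene's mean, against -0.13 to -0.01 on the other chromosomes. The set has 2 tested genes on chromosome 8 (Mvd and Msmo1) and 5 on chromosome 11 (Srebf1, Acly, Acaca, Fasn and Slc13a5). In bulk samples, fewer cells of a type and less RNA per cell cannot be told apart.

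**Figure D1:**
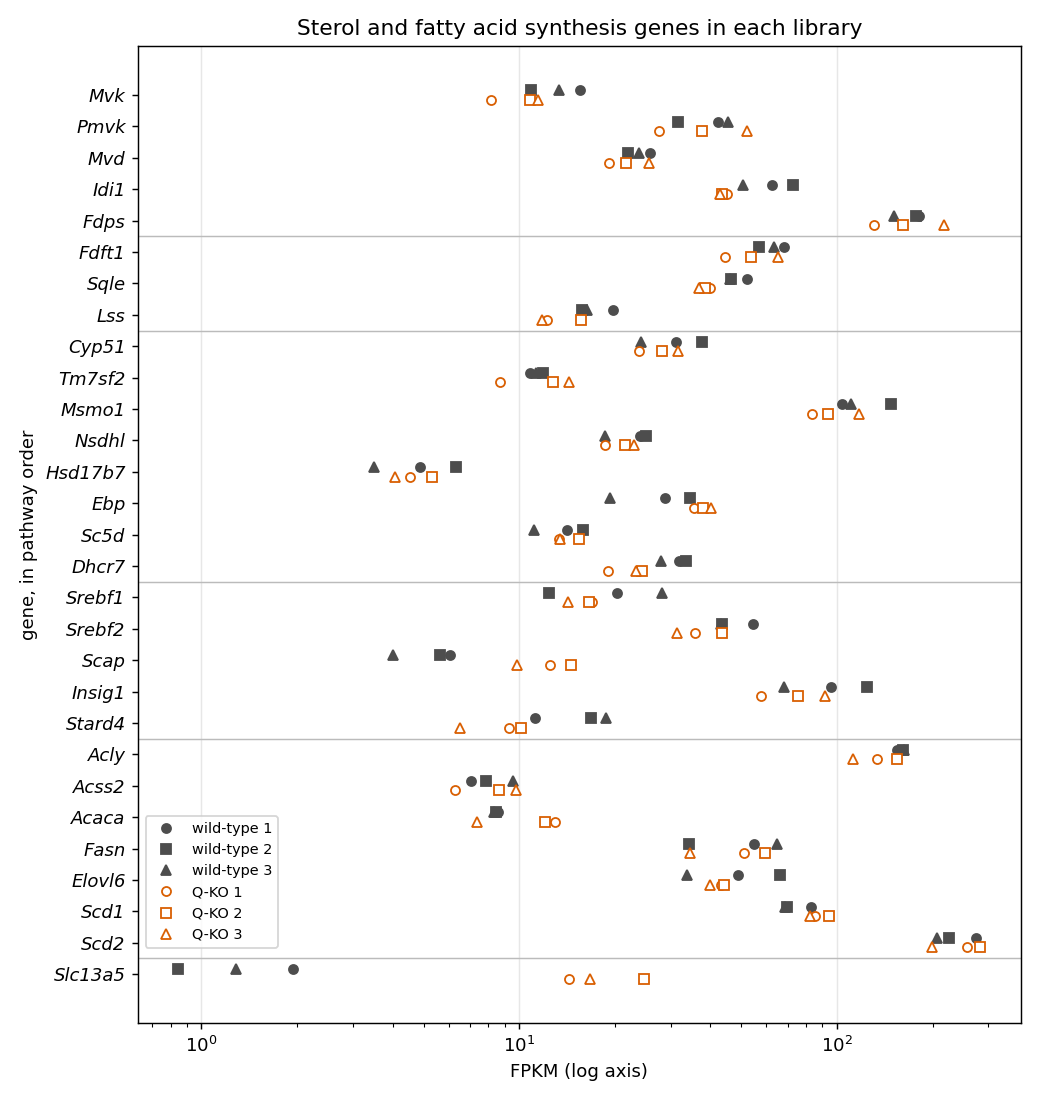
FPKM (log axis) of the 29 tested genes in each library, in pathway order from mevalonate kinase at the top to the citrate importer at the bottom; filled symbols are wild-type and open symbols are libraries labelled Q-KO, and grey lines divide the pathway steps. For most enzymes the symbols of both groups are intermingled, while those of Scap and Slc13a5 stand to the right in the libraries labelled Q-KO (9.85 to 14.6 against 4.01 to 6.06 FPKM for Scap).

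Slc13a5 was close to the lower limit of the test in wild-type cells and well above it in every library labelled Q-KO. In replicates 1, 2 and 3 its level was 1.94, 0.846 and 1.28 FPKM for wild-type, and 14.4, 24.7 and 16.7 FPKM for the libraries labelled Q-KO. The lowest of the latter was far above the highest wild-type value. Its means were 1.36 ± 0.553 and 18.6 ± 5.38 FPKM, so the wild-type mean alone also met the filter. The log2 change was 3.05 (SE 0.25, limma adjusted p = 0.00225, higher in 3 of 3 libraries). The call held without each single library (log2 change 2.84 to 3.22, highest adjusted p = 0.0259) and with chromosome medians removed (3.02), which bears on its place on chromosome 11. The related carriers were much less abundant: Slc13a2, a dicarboxylate carrier, reached 0.695 FPKM at most, and Slc13a3 and Slc13a4 stayed below 0.3 FPKM, so none was tested. In the RefSeq table Slc13a5 overlaps the long non-coding RNA 1700051A21Rik, which reached at most 0.158 FPKM.

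Scap, the sterol-sensing escort protein, was the only called gene of the SREBP group. Its level was 6.06, 5.65 and 4.01 FPKM in the wild-type libraries, in replicate order as in all lists here, and 12.5, 14.6 and 9.85 FPKM in those labelled Q-KO. All 3 of the latter exceeded every wild-type library. The means were 5.24 ± 1.08 and 12.3 ± 2.37 FPKM, and the log2 change was 1.09 (SE 0.20, limma adjusted p = 0.0256, higher in 3 of 3 libraries). The direction held without each single library (0.94 to 1.23), but the call did not: the adjusted p was 0.0714 without wild-type replicate 1 and 0.0931, 0.158 and 0.0574 without replicate 1, 2 or 3 labelled Q-KO. It was also lost with no filter on low values (adjusted p = 0.0611). When Y-linked transcripts were given a term in the model, which compares the libraries labelled Q-KO with wild-type replicate 3 alone, the log2 change was 1.40.

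Of the 29 tested genes, these 2 were the only ones called. An unadjusted p under 0.05 was found for 7 of them (24.1%), near the 21.5% of all genes tested. A missing call does not show equal levels. Every library labelled Q-KO was above every wild-type library for 3 genes (10.3%, against 18.2% of all genes tested) and below for 6 (20.7%, against 9.44%). The median log2 change of the set was -0.11, and that of all genes tested 0.07. A log2 change below 0 was found for 21 of the 29 (72.4%) and for 40.7% of all genes tested. With the Y-linked term these shares were 51.7% (15 of 29) and 42.5%, and with median-of-ratios scaling 82.8% and 50.7%.

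**Figure D2:**
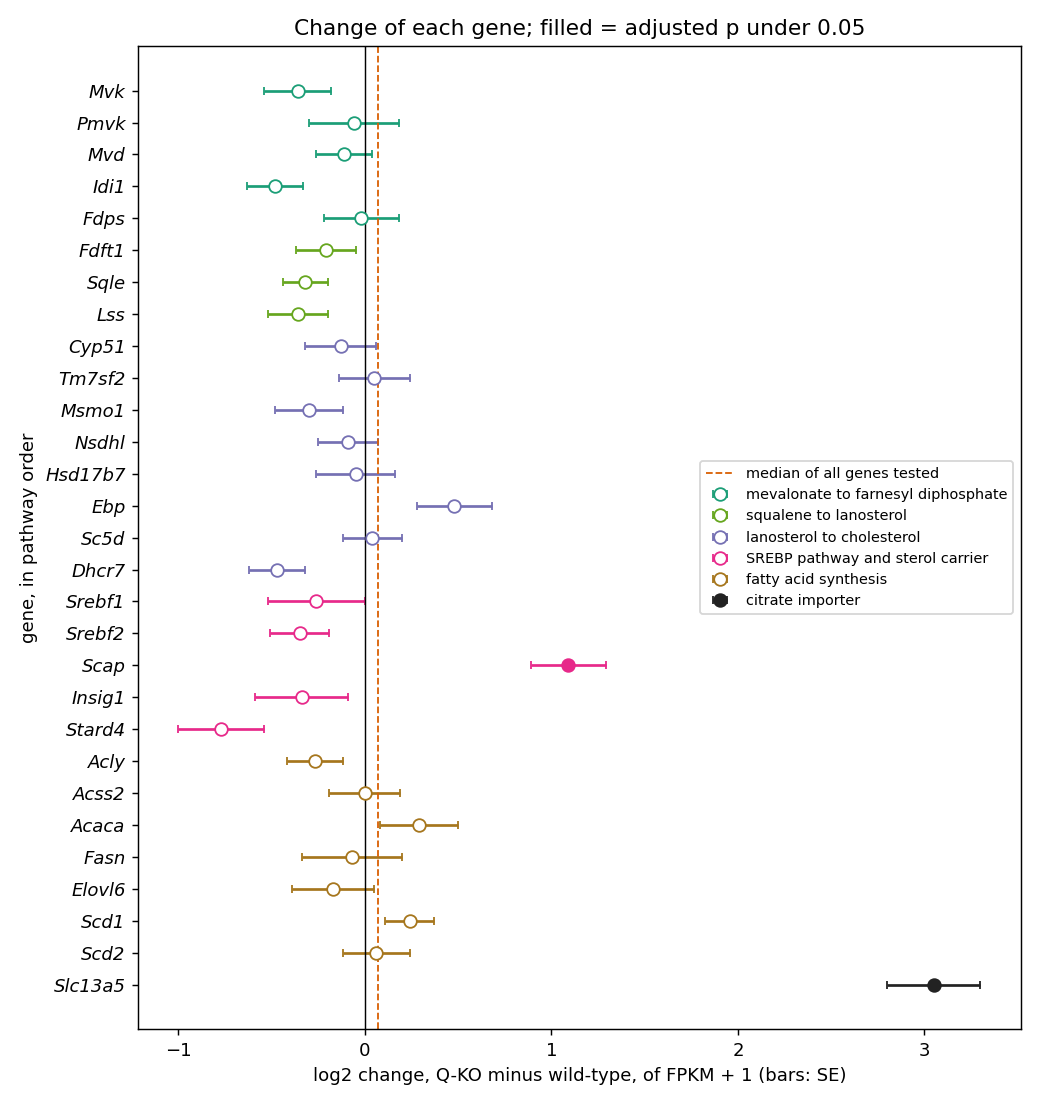
Log2 change of FPKM + 1 (libraries labelled Q-KO minus wild-type, bars are the SE) of the 29 tested genes, coloured by pathway step; filled symbols passed the limma test and the dashed line marks the median of all genes tested, 0.07. Slc13a5 (3.05) and Scap (1.09) stand far to the right, and most sterol enzymes lie between -0.48 and 0.

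The RefSeq table (GRCm38.p6, a later build than that of the FPKM values) gave promoter windows, from 250 bases before to 50 bases after a transcript start, for 24 of the 30 genes. The windows of the 2 called genes are shown because these genes changed. SREBPs are known to act beside the factor NF-Y, which binds CCAAT boxes, and SP1, which binds GC boxes, so CCAAT was looked for on both strands, as was the GC box GGGCGG and, in the same way, the E-box CACGTG. Capitals mark these 3 motifs or their reverse complements, and each window is written 5′ to 3′ on the strand of its gene. The Scap window belongs to the downstream one of 2 listed starts, whose windows overlap (chr9:110333106-110333405, plus strand). Slc13a5 has 2 listed starts, with windows at chr11:72267112-72267411 and, downstream, chr11:72266555-72266854, both on the minus strand.
Scap: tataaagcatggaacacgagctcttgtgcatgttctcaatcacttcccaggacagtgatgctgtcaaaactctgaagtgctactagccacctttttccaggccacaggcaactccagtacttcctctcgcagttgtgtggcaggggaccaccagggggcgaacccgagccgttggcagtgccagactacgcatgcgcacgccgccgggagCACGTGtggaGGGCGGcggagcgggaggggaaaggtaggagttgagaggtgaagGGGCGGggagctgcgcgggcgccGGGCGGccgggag
Slc13a5, upstream start: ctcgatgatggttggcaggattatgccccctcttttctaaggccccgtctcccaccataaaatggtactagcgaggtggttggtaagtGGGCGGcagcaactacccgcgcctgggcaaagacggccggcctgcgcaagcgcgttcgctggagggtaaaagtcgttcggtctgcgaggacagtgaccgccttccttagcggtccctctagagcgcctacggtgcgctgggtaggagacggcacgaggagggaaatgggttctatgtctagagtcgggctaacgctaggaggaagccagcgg
Slc13a5, downstream start: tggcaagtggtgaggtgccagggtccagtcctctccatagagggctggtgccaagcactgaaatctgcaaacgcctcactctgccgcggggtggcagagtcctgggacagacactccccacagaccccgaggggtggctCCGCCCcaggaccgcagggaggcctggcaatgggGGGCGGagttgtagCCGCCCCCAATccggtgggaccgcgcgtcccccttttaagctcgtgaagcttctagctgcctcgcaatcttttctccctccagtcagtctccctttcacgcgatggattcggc

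The Scap window held 3 GC boxes and 1 E-box, and no CCAAT box. The downstream Slc13a5 window held 3 GC boxes and 1 CCAAT box, with 1 of the GC boxes directly before the CCAAT box, and the upstream window held 1 GC box. Among the 24 genes with a window, 21 (87.5%) held CCAAT in at least 1 window, compared with 44.2% of 8689 tested genes with a window and 41.1% of all 27025 genes. GGGCGG was found in 20 (83.3%, against 70.6% and 38.2%) and CACGTG in 5 (20.8%, against 12.4% and 8.09%). The core of the sterol regulatory element, searched as CACNCCAC on both strands, was found for Insig1 and Hmgcs1 (8.33% of the 24, against 7.66% and 7.12%). Some genes have several windows, and a match is a stretch of letters, not a shown binding site.

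The first steps lead from acetyl-CoA to farnesyl diphosphate. Hmgcs1, the synthase that feeds the mevalonate pathway, was listed at 0 in all 6 libraries although the enzymes after it were abundant, and an exact 0 in such a table can be a failed estimate, so its level is not known from these data. Fdps, farnesyl diphosphate synthase, was the most abundant enzyme of this step. Its values were 182, 177 and 151 FPKM in wild-type and 131, 161 and 218 FPKM in libraries labelled Q-KO, so the latter included both the lowest and the highest library. Idi1, which isomerises isopentenyl diphosphate, was at 62.3, 72.6 and 50.7 FPKM in wild-type and at 45.0, 43.4 and 42.9 FPKM in libraries labelled Q-KO. The latter were almost equal and all below wild-type, with a log2 change of -0.48 (SE 0.15, limma adjusted p = 0.127), which did not pass. Idi1 has a close paralogue, Idi2, so its value carries some uncertainty. Mvk, mevalonate kinase, had means of 13.2 ± 2.31 and 10.1 ± 1.76 FPKM with overlapping ranges. Pmvk, the next kinase, had means of 39.9 ± 7.24 and 39.2 ± 12.5 FPKM, and Mvd, the decarboxylase, 23.9 ± 1.90 and 22.2 ± 3.19 FPKM. All 5 tested genes of this step had a log2 change below 0 and none was called.

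Squalene and lanosterol formation use 3 enzymes, and all 3 had a log2 change below 0, with a median of -0.32. Sqle, squalene epoxidase, an oxygen-dependent control point, was at 52.2, 46.4 and 46.2 FPKM in wild-type and at 39.8, 38.5 and 36.7 FPKM in libraries labelled Q-KO. The groups did not overlap and the spread within each was small, yet the log2 change of -0.32 (SE 0.12) did not pass (limma adjusted p = 0.171). Lss, lanosterol synthase, was at 19.7, 15.8 and 16.3 FPKM in wild-type and at 12.2, 15.6 and 11.8 FPKM in libraries labelled Q-KO. The gap between the groups was narrow, with replicate 2 labelled Q-KO just under the lowest wild-type library, and the log2 change was -0.36 (SE 0.16, limma adjusted p = 0.237). Fdft1, squalene synthase, had overlapping group ranges, with means of 62.8 ± 5.69 and 54.7 ± 10.5 FPKM. Its gene overlaps Ctsb in the RefSeq table (31.2 to 50.1 FPKM).

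The 8 genes of the steps from lanosterol to cholesterol had log2 changes of both signs, 3 above 0 and 5 below, and none was called. Dhcr7, the reductase of the last step of one branch, was at 31.8, 33.5 and 28.0 FPKM in wild-type and at 19, 24.4 and 23.3 FPKM in libraries labelled Q-KO. The groups were clearly apart, with a log2 change of -0.47 (SE 0.15, limma adjusted p = 0.118) that did not pass. Ebp, the sterol isomerase encoded on the X chromosome, was at 28.7, 34.4 and 19.3 FPKM in wild-type and at 35.5, 38.0 and 40.2 FPKM in libraries labelled Q-KO. It was the only enzyme of the sterol route with all libraries labelled Q-KO above wild-type, and its log2 change was 0.48 (SE 0.20, limma adjusted p = 0.218). Its lowest value was that of wild-type replicate 3: without that library the log2 change was 0.26, and against that library alone, with the Y-linked term, it was 0.94. Nsdhl, a sterol dehydrogenase also on the X chromosome, overlapped between groups (22.5 ± 3.46 and 21.0 ± 2.20 FPKM).

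The other 5 genes of this step also overlapped. Msmo1, the methylsterol oxidase and the most abundant of them, ranged from 104 to 148 FPKM in wild-type and from 83.3 to 117 FPKM in libraries labelled Q-KO. Cyp51, the lanosterol demethylase, had means of 30.9 ± 6.70 and 27.9 ± 3.87 FPKM. Tm7sf2, a sterol reductase, had means of 11.3 ± 0.562 and 11.9 ± 2.90 FPKM, and in the RefSeq table it overlaps Vps51 (6.19 to 8.29 FPKM). None of these 3 had a group apart from the other. Sc5d, the desaturase before Dhcr7, was at 13.7 ± 2.41 and 14.0 ± 1.17 FPKM, and Hsd17b7, a ketosteroid reductase and the least abundant sterol enzyme, at 4.91 ± 1.42 and 4.63 ± 0.626 FPKM.

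**Figure D3:**
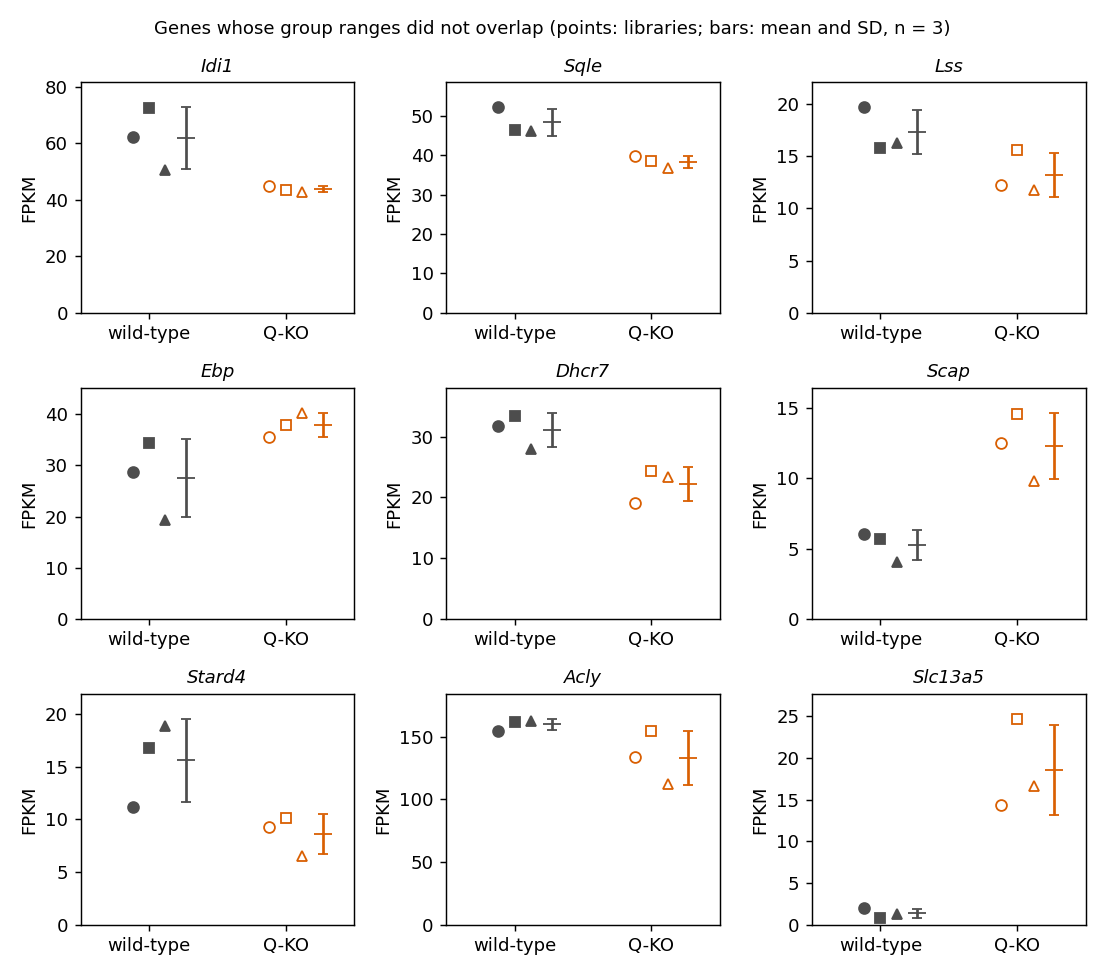
FPKM in each library of the 9 genes whose group ranges did not overlap, with the mean and SD of each group (n = 3) beside the points and axes starting at 0. Idi1, Sqle, Lss, Dhcr7, Stard4 and Acly are lower and Ebp, Scap and Slc13a5 higher in the libraries labelled Q-KO; Scap and Slc13a5 alone were called, and for Lss and Acly the nearest points of both groups almost touch.

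Across the sterol enzymes the libraries labelled Q-KO differed among themselves. Replicate 1 labelled Q-KO held the lowest value of all 6 libraries for 9 of the 16 enzymes, with a median deviation of -0.28 (log2) from each gene's mean over the libraries. This library also had the highest feeder marker sum (6.48 FPKM), with Col1a1 at 1.86 FPKM against at most 0.168 FPKM in any other library and Col3a1 at 1.35 against at most 0.0322 FPKM. Col1a2, Postn, Dcn and Lum were also highest in it. Thy1, of the same list, went the other way, at 1.36 FPKM there against 1.42, 1.83 and 2.75 FPKM in wild-type. The part of these markers in the sterol enzyme values was not tested. Replicates 2 and 3 labelled Q-KO had medians of -0.05 and 0.10, and wild-type replicates 1, 2 and 3 had 0.14, 0.11 and 0.01. Replicate 3 labelled Q-KO therefore lay within the wild-type range. The following counts were added after the data were seen. The number of sterol enzymes with a log2 change below 0 was 13 of 16 in all libraries, 11 without replicate 1 labelled Q-KO, 10 without wild-type replicate 2, and 9 with the Y-linked term. Their median log2 change was -0.12, and -0.03 without replicate 1 labelled Q-KO, -0.22 without wild-type replicate 3 and -0.25 without replicate 3 labelled Q-KO. With median-of-ratios scaling, which puts the median of all genes at -0.01, 15 of 16 were below 0 and the median was -0.21.

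**Figure D4:**
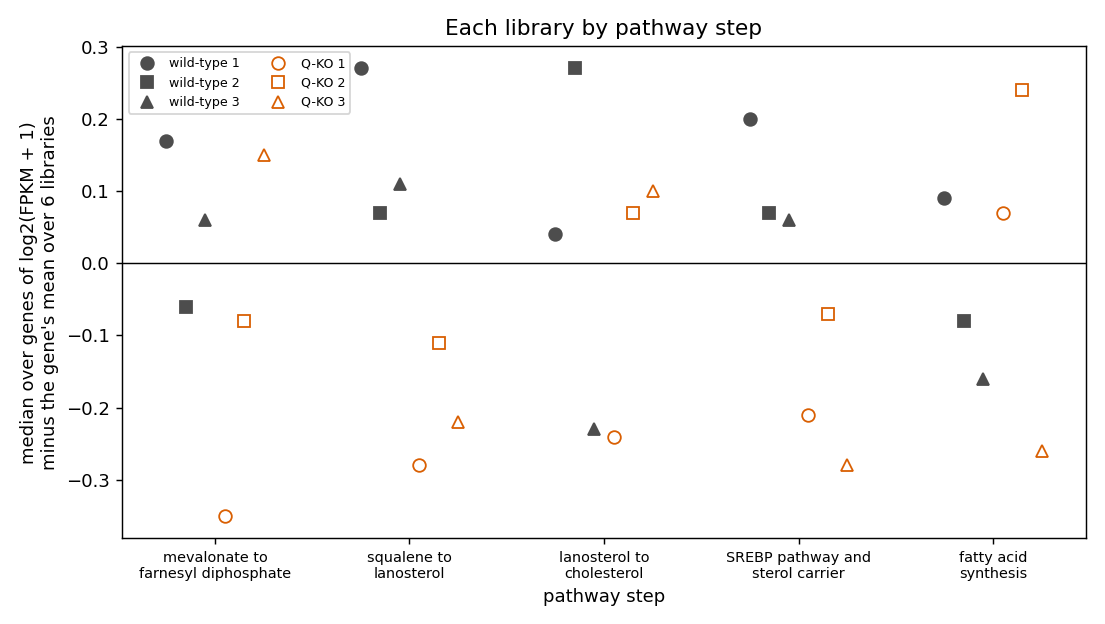
Median over the genes of each pathway step of log2(FPKM + 1) minus the gene's mean over the 6 libraries, 1 symbol per library; the horizontal line is no deviation. The libraries labelled Q-KO (open) spread widely, from -0.35 to 0.15 for the mevalonate step, and lie below all wild-type libraries for the squalene step (-0.28 to -0.11 against 0.07 to 0.27) and for the SREBP group (-0.28 to -0.07 against 0.06 to 0.20).

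In the SREBP group, Scap went against the other 4 genes, whose log2 changes were all below 0 without a call. Srebf2, the factor of sterol genes, was at 54.6, 43.5 and 43.1 FPKM in wild-type and at 35.7, 43.5 and 31.5 FPKM in libraries labelled Q-KO, and replicate 2 labelled Q-KO met the wild-type range. Srebf1, the factor of fatty acid genes on chromosome 11, was at 20.3, 12.4 and 28.1 FPKM in wild-type and at 17.0, 16.6 and 14.2 FPKM in libraries labelled Q-KO. Its wild-type values spanned those of the other group, and the highest was wild-type replicate 3. Srebf1 overlaps Rai1 in the RefSeq table (1.31 to 3.16 FPKM). Insig1, the retention protein and itself a sterol-regulated SREBP target, was at 95.7, 124 and 68.4 FPKM in wild-type and at 57.7, 75.3 and 92.0 FPKM in libraries labelled Q-KO. The ranges overlapped, and Insig1 was more abundant than Scap in each library. Stard4, a soluble sterol carrier, had the lowest log2 change of the set. It was at 11.2, 16.8 and 18.8 FPKM in wild-type and at 9.28, 10.1 and 6.51 FPKM in libraries labelled Q-KO. The groups did not overlap and the wild-type mean was 1.80 times the other, with a log2 change of -0.77 (SE 0.23, limma adjusted p = 0.107) that did not pass.

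The fatty acid synthesis genes of the set showed no call, and 3 of 7 had a log2 change above 0. Acly, ATP citrate lyase, makes cytosolic acetyl-CoA and lies on chromosome 11. It was at 155, 162 and 163 FPKM in wild-type and at 134, 155 and 112 FPKM in libraries labelled Q-KO. The ranges were separated by less than 1 FPKM, and the log2 change was -0.27 (SE 0.15, limma adjusted p = 0.334). Acss2, the acetate-using synthetase, was near 8 FPKM in both groups (8.17 ± 1.29 and 8.23 ± 1.77 FPKM). Acaca, acetyl-CoA carboxylase, was at 8.56, 8.45 and 8.34 FPKM in wild-type and at 13.0, 12.1 and 7.35 FPKM in libraries labelled Q-KO. Its wild-type values were almost equal, while replicate 3 labelled Q-KO lay below them and the other 2 above. In the RefSeq table Acaca overlaps Tada2a, which was more abundant (33.1 to 45.8 FPKM). Fasn, fatty acid synthase, was at 54.8, 34.2 and 64.6 FPKM in wild-type and at 50.9, 59.3 and 34.6 FPKM in libraries labelled Q-KO. Both groups thus had 1 library near 34 FPKM and the rest above 50 FPKM.

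The elongation and desaturation genes of the set followed the same pattern of overlap. Elovl6, which elongates palmitate, had means of 49.5 ± 16.2 and 42.5 ± 2.15 FPKM. Scd2 was the most abundant gene of the whole set, at 236 ± 34.6 and 246 ± 42.4 FPKM, and Scd1, the other stearoyl-CoA desaturase, was at 73.9 ± 7.80 and 87.4 ± 6.50 FPKM. For Scd1 only 1 library labelled Q-KO fell under the highest wild-type value (82.2 against 82.9 FPKM). Scd1 and Scd2 are close copies, so reads may be divided between them with uncertainty.

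A second list, of 87 genes around these routes and outside the set, had 76 tested genes, of which 2 were called higher and 3 lower in the libraries labelled Q-KO, against the 3.04% and 1.02% of all genes given above. In the sterol part, 2 of 22 tested genes were lower and 0 higher. Lbr, the lamin B receptor, also carries sterol reductase activity like Tm7sf2. It was at 71.1, 79.4 and 63.6 FPKM in wild-type and at 40.3, 45.6 and 41.0 FPKM in libraries labelled Q-KO (log2 change -0.74, SE 0.13, limma adjusted p = 0.0252). Unlike Tm7sf2, its groups were well apart. Mbtps2, the Golgi protease that makes the second cut of SREBPs, was at 11.1, 12.3 and 11.5 FPKM in wild-type and at 7.44, 7.70 and 6.49 FPKM in libraries labelled Q-KO (log2 change -0.63, SE 0.14, limma adjusted p = 0.0487). So within the machinery that activates SREBPs, Scap was called higher and Mbtps2 lower, while Mbtps1, the protease of the first cut, had means of 34.4 ± 5.04 and 31.6 ± 7.78 FPKM with overlapping ranges. The call of Mbtps2 was lost without any 1 of the 6 libraries (adjusted p 0.0778 to 0.189), and that of Lbr held only without wild-type replicate 3 (adjusted p up to 0.114 without another library).

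Around fatty acid synthesis, 1 of 26 tested genes was called higher and 0 lower. In its citrate supply, 0 of 11 were called higher and 1 lower. Of all genes tested, 3.04% were called higher and 1.02% lower. Elovl7, a fatty acid elongase, was at 4.07, 5.11 and 4.91 FPKM in wild-type and at 9.66, 10.5 and 10.5 FPKM in libraries labelled Q-KO (log2 change 0.98, SE 0.15, limma adjusted p = 0.0141). Elovl6 was not called. Acss1, the mitochondrial counterpart of Acss2, was at 10.9, 14.2 and 19.8 FPKM in wild-type and at 7.12, 6.51 and 6.60 FPKM in libraries labelled Q-KO (log2 change -1.0, SE 0.21, limma adjusted p = 0.0402). Of the pair, therefore, the mitochondrial enzyme was called lower and the cytosolic one was not called. The call of Elovl7 was lost without wild-type replicate 1 or replicate 2 or 3 labelled Q-KO (adjusted p up to 0.110), and that of Acss1 held only without wild-type replicate 3 (up to 0.194 without another library). Slc25a1, which exports citrate from mitochondria to the cytosol, overlapped between groups (65.7 ± 13.9 and 70.0 ± 13.7 FPKM), and unlike the importer Slc13a5 it was not called.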

How the data were processed

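The authors deposited 1 table of FPKM values, 1 per gene symbol and library, and the tools named, without role or order, per the submitters' processing notes were STAR 2.5, Cufflinks, bcl2fastq 2.16 and CASAVA, with the build mm9. The sources used here give no annotation, strand setting or depth. FPKM is relative to each library's total, so a few abundant genes can shift the rest. Without a stated strand setting, overlapping genes cannot be told apart. After 1 stray header row was dropped, 24043 genes remained, 4462 of them listed at 0 throughout.

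Groups came from the labels, and separate cultures are not stated, so p-values measure the spread between these libraries, which may be technical. Genes were tested with limma 3.58.1 in R 4.3.3 (intensity trend, two-sided, Benjamini-Hochberg, threshold 0.05) on log2(FPKM + 1) at a mean of at least 1 FPKM, with no block. The code of the fit was run on data simulated from its own gene means and variances. These held none of the library differences described above, so that run does not bear on the calls. Chromosomes were taken from RefSeq symbols for 99.5% of the genes tested. Relative depth came from the modal ratio of values under 0.1 FPKM. The set and lists were chosen with earlier results of these data known. Full values are given for genes called or with separate ranges, and other genes by levels; Mbtps1, Slc25a1, the Slc13 carriers and overlapping genes were named after their values were seen. Some genes of the surrounding lists are not reported here.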

Additional observations from a re-analysis of the deposited data

How the results depend on the processing

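The 15 alternatives were a pseudocount of 0.1, quantile normalization, median-of-ratios scaling, a stricter filter (mean of 5 FPKM or more) or none, no intensity trend, the replicate block, centring on chromosome medians, a term for Y-linked transcripts, and leaving out each of the 6 libraries. The 9 genes of the set that were called or had separate ranges kept their direction in each. Of their 135 repeated tests, 129 stayed on the same side of the threshold, 5 lost a call (all Scap) and 1 gained one (Ebp with the Y-linked term, where wild-type replicate 3 is assumed to vary like the other libraries). Slc13a5 passed in 15 of 15. Of the surrounding genes, Elovl7 passed in 12, Lbr in 9, Acss1 in 8 and Mbtps2 in 5 of the 15, and Nr1h2 passed with chromosome centring. The count of called genes of the set was 2, and 1 with no filter; it was 1 to 2 on leaving out a library. Over all genes the count was 470, 266 with the stricter filter, 894 with the Y-linked term, and 28 to 566 on leaving out a library (28 without replicate 2 labelled Q-KO). The surrounding list had 5 calls, 3 with the replicate block, 8 with the Y-linked term, and 0 to 4 on leaving out a library. The median log2 change of the set was -0.11 and ranged from -0.21 to -0.03, each less than the 0.12 spread between libraries (SD) away from it. Same-numbered libraries did not deviate together (r of -0.03, 0.01 and 0.02). The labels do not say whether they were handled together, and these r values cannot settle it. With the replicate block 333 genes were called. The share of rises among calls was 74.9%, and 54.0% after quantile normalization, 61.8% after median-of-ratios scaling and 61.3% after centring on chromosomes. The sources used here give no depth, so its effect on the calls was not tested.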

Other observations

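Genes of fatty acid oxidation, the reverse route, were mostly on the higher side in the libraries labelled Q-KO. Of 11 tested genes, 9 had a log2 change above 0 and 2 below (18.2%, against 40.7% of all genes tested). The median was 0.23 for the list and 0.07 for all genes tested. Every library labelled Q-KO was above every wild-type library for 4 of the 11 (36.4%, against 18.2% of all genes tested). Hadhb, a subunit of the mitochondrial trifunctional protein, was among them (34.9 ± 1.29 and 43.9 ± 1.14 FPKM) but was not called (limma adjusted p = 0.156). Cpt1a, which admits fatty acids to mitochondria, overlapped between groups (32.3 ± 10.2 and 43.0 ± 7.46 FPKM).

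Among genes of the sterol sensor LXR and of sterol efflux, 0 of 6 tested were called by limma, and 1 had an unadjusted p under 0.05 (16.7%, against 21.5% of all genes tested). That gene was Nr1h2, which encodes LXR beta, with means of 30.3 ± 2.56 FPKM in wild-type and 21.6 ± 1.39 FPKM in libraries labelled Q-KO (log2 change -0.47, SE 0.13, limma adjusted p = 0.0875). Its groups were apart, while the efflux transporter genes Abca1 (1.35 ± 1.03 and 1.65 ± 0.491 FPKM) and Abcg1 (3.10 ± 1.86 and 1.98 ± 0.144 FPKM) overlapped. Both transporters were highest in wild-type replicate 3, at 2.54 and 5.22 FPKM.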
